A study of Homo sapiens with 36 samples.

Results

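Probes for heat shock proteins and their chaperone partners were followed in 2 clones of U373, an established glioblastoma cell line that lacks endogenous CC3 (TIP30). Members were the array probes with values whose gene symbol begins with HSPA, HSPB, HSPD, HSPE, HSPH, HSP90 or DNAJ, or with BAG or CCT and a digit, together with HSF1, HSF2 and TCP1. The rule used names only and no measured value. It gave 65 probes of 56 genes, among 13041 probes with values, whose single symbols name 8743 genes. A further 23 probes that fit the rule were blank on all arrays, and 18 genes, among them HSPA2, HSPB6, DNAJA4 and DNAJC15, had no probe with values. HSPA1A, HSPA1B, HSP90AA1, HSP90AB1 and DNAJA1 were not analysed here. Of the 65 probes, 63 had values under both treatments, BAG4 had values on untreated arrays only and CCT6B on UV arrays only. HSPBAP1, a protein that binds a small heat shock protein, entered by its prefix, and HSP90AA2 and HSP90AB2P are annotated as pseudogenes.

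The 4 groups were U373cc3 cells, which stably express exogenous CC3, at 2 h after UV, untreated U373cc3 cells, U373neo cells, which carry the empty vector, at 2 h after UV, and untreated U373neo cells. The labels give a UV dose of 20 J/m2, and so does the legend of the paper's supplementary list of UV-changed genes. The methods give a lower dose. Each CC3 state was 1 clone, so a difference between the clones and an effect of CC3 cannot be told apart. Each group had 3 biological replicates, each hybridized to 3 arrays, 36 arrays in all. The labels do not say whether the replicates were separate cultures, so p-values measure only the spread between these samples. In bulk RNA, fewer cells expressing a gene and less RNA per cell cannot be told apart.

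Heat shock proteins are molecular chaperones that keep other proteins from misfolding. HSP70 proteins bind unfolded stretches in cycles of ATP hydrolysis, which J-domain proteins (DNAJ) start and which nucleotide exchange factors such as HSP110 and BAG proteins reset. HSP90 finishes the folding of signalling proteins, small heat shock proteins hold unfolded proteins in a soluble state, and the CCT ring folds actin and tubulin. Heat shock factors bind heat shock elements in promoters and switch on the inducible members under stress, while the ER stress element serves the chaperones of the endoplasmic reticulum.

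The 18 untreated arrays had medians of 895 to 896 and the 18 UV arrays medians of 746 to 748, so the 2 sets had been brought to different distributions. Clones were therefore compared within a treatment on the deposited intensities, and UV with untreated cells after all 36 arrays had been normalized together. Among member probes the SD of log2 intensity was on average 0.116 between technical arrays and 0.106 between biological replicates. The array serial numbers in the labels fell into 3 ranges, here A, B and C. U373cc3 UV had 3, 6 and 0 arrays in them, U373cc3 had 4, 4 and 1, U373neo UV had 9, 0 and 0, and U373neo had 5, 1 and 3. Of 12 listed markers of glioma and astrocytes, 11 were blank and only EGFR had values, so the labelled cell type could not be checked on its defining markers. Of the other lists, 4 of 5 neuronal, 2 of 5 fibroblast, 1 of 5 leukocyte and 0 of 5 epithelial markers had values. Of the 4 neuronal markers 3 were higher in untreated U373cc3, against 20.8% of all probes, with a median log2 change of 0.40 over the list. After UV 0 of the 4 were called between the clones (median 0.16). EGFR was lower in untreated U373cc3 (-0.42, adjusted p = 0.0202) and was not called between the clones after UV (-0.07). LUM, a fibroblast marker, averaged 988 in untreated U373cc3 and 2115 in untreated U373neo (adjusted p = 1.81e-06). COL1A1, the other fibroblast marker with values, was not called between the clones without UV (-0.24) or after UV (0.23). The part of these markers in the members' differences was not tested.

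RefSeq promoter windows, 250 bases before to 50 after the start, were found for 49 of the 56 genes, 64 windows in all. They were searched on both strands for the heat shock element, taken as GAA, 2 bases, TTC, 2 bases, GAA, and for the ER stress element, taken as CCAAT, 9 bases, CCACG. The heat shock element was present in 4 of 64 windows (6.25%), against 0.49% of 35116 windows of all genes. The ER stress element was present in 2 windows (3.12%), against 0.077% of all windows. The full CRE palindrome was in 0 of the 64 windows and in 1.848% of all windows. The 6 windows with an element are shown because these genes carry the elements through which stress is known to reach chaperone genes, on build GRCh38.p14, with the element in capitals. The heat shock element lies in the windows of HSPA6 (chr1:161524290-161524589, plus strand), HSPA8 (chr11:123062087-123062386, minus strand), HSPD1 (chr2:197499791-197500090, minus strand) and DNAJB6 (chr7:157336754-157337053, plus strand). The ER stress element lies in those of HSPA5 (chr9:125241294-125241593, minus strand) and HSP90B1 (chr12:103930160-103930459, plus strand).
HSPA6: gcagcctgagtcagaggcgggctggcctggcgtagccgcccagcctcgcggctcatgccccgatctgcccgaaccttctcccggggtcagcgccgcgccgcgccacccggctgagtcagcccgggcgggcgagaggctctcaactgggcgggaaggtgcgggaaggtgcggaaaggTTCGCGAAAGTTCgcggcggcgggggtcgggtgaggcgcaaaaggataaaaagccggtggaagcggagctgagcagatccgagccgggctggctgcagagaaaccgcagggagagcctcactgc
HSPA8: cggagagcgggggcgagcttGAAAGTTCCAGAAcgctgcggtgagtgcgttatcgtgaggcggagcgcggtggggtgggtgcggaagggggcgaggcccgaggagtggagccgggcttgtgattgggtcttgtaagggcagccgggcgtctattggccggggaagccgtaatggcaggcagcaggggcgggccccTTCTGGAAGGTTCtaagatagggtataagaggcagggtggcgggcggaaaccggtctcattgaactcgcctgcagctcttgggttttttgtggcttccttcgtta
HSPD1: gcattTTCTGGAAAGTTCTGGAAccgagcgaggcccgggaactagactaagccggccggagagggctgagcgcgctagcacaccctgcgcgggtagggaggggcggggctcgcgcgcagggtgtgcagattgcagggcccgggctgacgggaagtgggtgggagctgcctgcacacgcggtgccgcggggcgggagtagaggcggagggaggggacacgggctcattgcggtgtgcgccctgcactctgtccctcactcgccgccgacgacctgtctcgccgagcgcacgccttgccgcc
DNAJB6: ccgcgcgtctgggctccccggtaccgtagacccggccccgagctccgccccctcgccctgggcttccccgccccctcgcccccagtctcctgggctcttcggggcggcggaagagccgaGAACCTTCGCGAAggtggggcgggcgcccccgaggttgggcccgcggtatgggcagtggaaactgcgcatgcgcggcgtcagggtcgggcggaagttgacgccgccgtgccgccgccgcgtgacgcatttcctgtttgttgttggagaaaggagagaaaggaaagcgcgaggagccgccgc
HSPA5: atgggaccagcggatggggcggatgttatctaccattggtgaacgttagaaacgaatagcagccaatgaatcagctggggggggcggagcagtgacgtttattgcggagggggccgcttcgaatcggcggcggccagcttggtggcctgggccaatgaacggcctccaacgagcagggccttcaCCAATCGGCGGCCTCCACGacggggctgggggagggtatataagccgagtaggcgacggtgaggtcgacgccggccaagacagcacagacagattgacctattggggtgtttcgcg
HSP90B1: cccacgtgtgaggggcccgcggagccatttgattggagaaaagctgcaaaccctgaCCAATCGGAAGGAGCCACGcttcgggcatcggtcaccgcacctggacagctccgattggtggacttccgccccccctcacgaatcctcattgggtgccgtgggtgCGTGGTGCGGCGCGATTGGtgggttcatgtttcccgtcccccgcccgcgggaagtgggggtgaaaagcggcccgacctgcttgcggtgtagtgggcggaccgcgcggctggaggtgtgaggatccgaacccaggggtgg
In HSPD1 the capitals cover 2 overlapping elements, and HSPA8 and HSP90B1 have 2 separate ones each. The element of HSPA6 lies 74 to 62 bases before the start, and that of HSPA5 66 to 48 bases before it. A match of letters is a description of the window and not evidence of binding. Only exact matches within these windows were searched, so a gene without a match may still have an element.

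Without UV, 16 member probes were higher and 6 lower in U373cc3 than in U373neo out of 64 tested (34.4% called at an adjusted p under 0.05 in limma). Among all 12300 probes 38.2% were called, 20.8% higher and 17.3% lower. The median log2 change was 0.11 over the members and 0.01 over all probes. Only 5 members (7.81%) were called with a change of at least 1.5-fold, against 12.7% of all probes. After UV, 13 members were higher and 12 lower in U373cc3 UV than in U373neo UV out of 64 (39.1%), against 38.0% of 12343 probes, 18.2% higher and 19.8% lower. With a change of at least 1.5-fold, 7 members (10.9%) were called, against 12.8% of all probes. The same 9 probes (14.3% of 63) were higher and the same 6 (9.52%) lower under both treatments, against 11.8% and 12.2% of all 11602 probes tested under both. The call was kept whichever replicate was left out for 13 of the 22 members called without UV and 17 of the 25 called after UV. Without UV the number of higher members was 9 without U373neo replicate 2 and 10 without U373neo replicate 3, and that of lower members was 4 without U373cc3 replicate 2 and 9 without U373neo replicate 1. After UV all U373neo arrays lay in serial range A, where U373cc3 UV had the 3 arrays of its replicate 3 alone. Within that range the change after UV was 2.20 for HSPA6, -1.15 for HSPB3, -0.93 for DNAJC4, 0.75 for DNAJC1, 0.53 for DNAJC6, -0.52 for BAG1 and 0.25 for DNAJC10 (0.50 over all arrays), so the U373cc3 side of these values rests on 1 replicate.

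HSPA6, the strictly stress-inducible HSP70 gene, had the largest change of all members under both treatments. Its intensities were 663, 837 and 791 in untreated U373cc3 and 158, 184 and 144 in untreated U373neo. After UV they were 792, 777 and 769 in U373cc3 and 140, 177 and 188 in U373neo. The clones did not overlap under either treatment. All U373neo values lay far below the array medians of 895 to 896 without UV and 746 to 748 after UV, so the fold rests on a dim signal in that clone. The difference was 4.71-fold without UV (log2 change 2.24, SE 0.13, adjusted p = 1.55e-07) and 4.67-fold after UV (2.22, SE 0.13, adjusted p = 2.04e-07). Within serial ranges A, B and C each of which held 1 or 2 replicates of a clone, the untreated log2 change was 2.14, 2.23 and 2.33. Of the 20 measured genes nearest to HSPA6 on chromosome 1, 6 were higher and 2 lower, with a median log2 change of 0.08. HSPA6 has a near-identical pseudogene, HSPA7, and whether the probe also detects it was not tested.

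The other HSP70 genes differed little between the clones. HSPA5, the chaperone of the endoplasmic reticulum known as BiP, averaged 579 ± 18.7 in U373cc3 and 578 ± 43.8 in U373neo (SD, n = 3 each). HSPA8, the constitutive HSC70, gave on probe 1 37303, 47278 and 45303 in untreated U373cc3 and 39462, 47681 and 50352 in untreated U373neo. Its probe 2 gave 18993, 16471 and 17094 in untreated U373cc3 and 17780, 17331 and 18688 in untreated U373neo, and neither probe was called (log2 changes -0.08 and -0.04). The mitochondrial HSPA9 measured 1133, 990 and 807 in untreated U373cc3 and 556, 1133 and 1013 in untreated U373neo. It was not called under either treatment. HSPA12A, a distant relative, was called without UV only (log2 change 0.44, adjusted p = 0.0403), and it lost the call with the replicate block (adjusted p = 0.0596) and without any 1 of U373cc3 replicates 1, 2 and 3 or U373neo replicates 2 and 3 (log2 changes 0.48, 0.37, 0.47, 0.42 and 0.35). HSPA4, an exchange factor related to HSP110, was called after UV only (0.37, adjusted p = 0.0152). The call was lost without U373cc3 UV replicate 2 (0.29) or U373neo UV replicate 3 (0.35). With serial range A alone, where U373cc3 UV had 1 replicate, its change after UV was 0.28.

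HSPH1, the HSP110 exchange factor of HSP70, was lower in U373cc3 on both of its probes. Probe 1 gave 8190, 6980 and 8158 in untreated U373cc3 and 14044, 13554 and 11729 in untreated U373neo. Probe 2 gave 4611, 4700 and 4849 in U373cc3 and 8296, 8031 and 8117 in U373neo. The clones did not overlap on either probe. The log2 change was -0.75 (SE 0.09, adjusted p = 6.25e-05) for probe 1 and -0.79 (SE 0.06, adjusted p = 1.45e-06) for probe 2, and after UV it was -0.81 and -0.77. HSPH1 lies on chromosome 13, where 121 of 136 measured genes were lower in untreated U373cc3, with a median log2 change of -0.75. DNAJC3, the other member gene on this chromosome, was not called without UV (-0.22, adjusted p = 0.202) and was lower after UV (-0.48, adjusted p = 0.0139). The latter call was lost without U373cc3 UV replicate 3 (-0.40) or U373neo UV replicate 2 (-0.44). All 20 of the nearest measured neighbours of HSPH1 were lower without UV, with a median of -0.77.

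DNAJC4, a J-domain gene on chromosome 11, had a like surrounding. It measured 340, 248 and 257 in untreated U373cc3 and 453, 443 and 402 in untreated U373neo, without overlap. The log2 change was -0.63 (SE 0.11, adjusted p = 0.00103) without UV and -0.93 (SE 0.11, adjusted p = 5.96e-05) after UV. Of its 20 nearest measured neighbours 18 were lower and 2 higher in untreated U373cc3, with a median of -0.69. On chromosome 11 as a whole 326 of 497 genes were lower and 20 higher. Of the 3 member genes on this chromosome DNAJC4 was the 1 called, and HSPA8 and HSP90AA2 were not. On all chromosomes but 11 and 13, 14 of 50 member genes were higher and 3 lower, against 1831 higher and 1074 lower of all 7797 genes (23.5% and 13.8%). Whether a shared chromosomal change lies behind the values of HSPH1 and DNAJC4 was not tested.

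**Figure D1:**
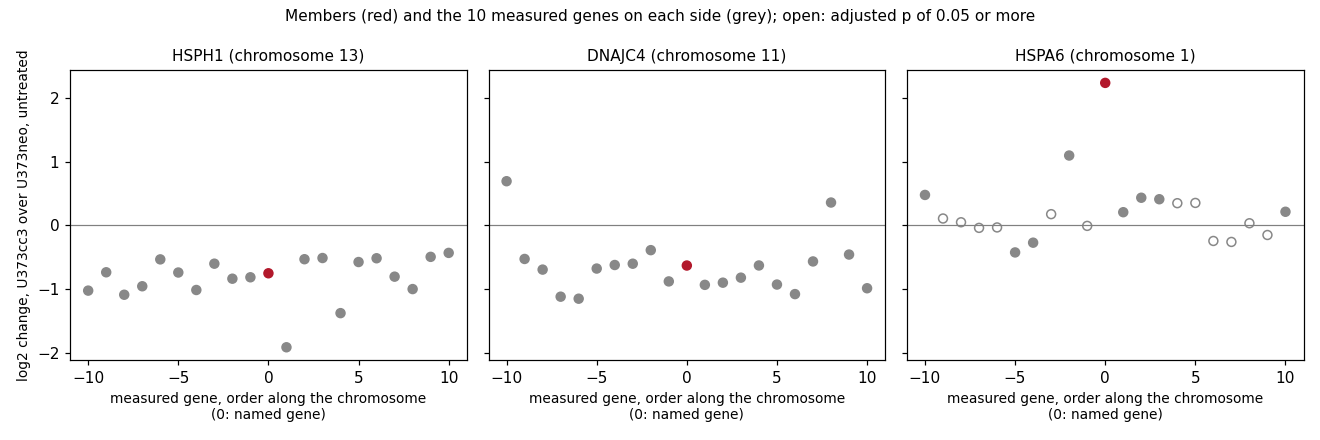
Log2 change of untreated U373cc3 over untreated U373neo (y axis) for HSPH1, DNAJC4 and HSPA6 (red) and the 10 measured genes on each side in chromosome order (x axis, grey), open where the adjusted p was 0.05 or more. All 20 neighbours of HSPH1 and 18 of 20 neighbours of DNAJC4 were lower, while those of HSPA6 had a median of 0.08.

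Of the small heat shock proteins, HSPB8 was higher and HSPB3 lower in U373cc3. HSPB8, which works with BAG3 in the removal of misfolded proteins, measured 8909, 9600 and 9598 in untreated U373cc3 and 6278, 7121 and 6386 in untreated U373neo. HSPB3, known mainly from muscle, measured 363, 347 and 357 in untreated U373cc3 and 586, 749 and 607 in untreated U373neo. Neither gene overlapped between the clones. HSPB8 was 1.42-fold higher (log2 change 0.51, SE 0.07, adjusted p = 0.000173) and HSPB3 1.81-fold lower (-0.86, SE 0.10, adjusted p = 3.95e-05). After UV the log2 changes were 0.43 for HSPB8 and -1.16 for HSPB3, both called. Within serial ranges A, B and C the untreated change was 0.37, 0.83 and 0.49 for HSPB8 and -0.89, -0.88 and -0.64 for HSPB3. Among the 20 nearest measured genes 3 were higher and 3 lower for HSPB8, and 5 higher and 3 lower for HSPB3. HSPB1, the widely expressed HSP27, was not called, with 20635, 18456 and 17174 in untreated U373cc3 and 16746, 25705 and 23398 in untreated U373neo. Both probes of HSPBAP1 were higher in untreated U373cc3 (0.34 and 0.46) and were not called after UV. Probe 2 measured 413, 426 and 447 in untreated U373cc3 and 336, 292 and 310 in untreated U373neo.

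**Figure D2:**
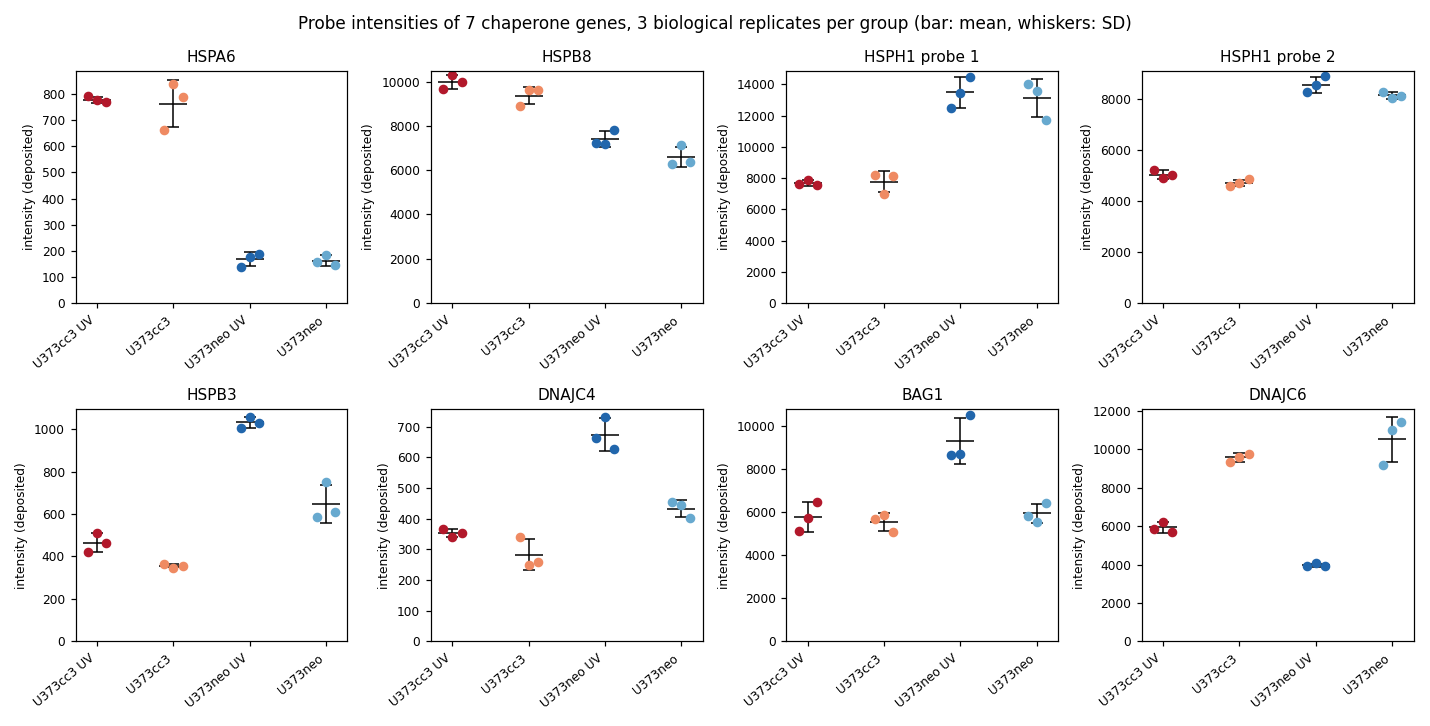
Deposited probe intensity (y axis, linear, starting at 0) of HSPA6, HSPB8, HSPH1, HSPB3, DNAJC4, BAG1 and DNAJC6 in the 4 groups (x axis), with a point for each of the 3 biological replicates, a bar at the mean and whiskers of 1 SD. The U373cc3 points of HSPA6 lie between 663 and 837 and the U373neo points between 140 and 188.

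Among J-domain proteins, which choose the substrates of HSP70, most differences were small. DNAJB4, a cytosolic member, was 1.44-fold higher in untreated U373cc3 (333, 313 and 340) than in untreated U373neo (235, 200 and 250). Probe 1 of DNAJB12, a J protein of the endoplasmic reticulum membrane, was 1.49-fold higher (577, 530 and 502 in U373cc3, 401, 361 and 323 in U373neo), and probe 2 was not called (adjusted p = 0.057). Both called probes were free of overlap. After UV they were called too (log2 changes 0.30 and 0.25). DNAJB4 lost that call without U373cc3 UV replicate 1 (0.25) or U373neo UV replicate 1 (0.24), and DNAJB12 probe 1 lost it without any 1 of the 6 UV replicates, with adjusted p between 0.0558 and 0.128.

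DNAJB2, which binds ubiquitin and is best known in neurons, measured 2086, 1807 and 1918 in untreated U373cc3 and 2716, 2345 and 2181 in untreated U373neo. It was lower in U373cc3 without UV (log2 change -0.31, adjusted p = 0.0165) and after UV (-0.33). The untreated call was lost with serial range A alone (-0.18), with only the groups compared (adjusted p = 0.0511), and without U373cc3 replicate 2 (-0.26) or U373neo replicate 1 (-0.23). DNAJB1, the main cytosolic partner of HSP70, measured 4727, 5973 and 6115 in untreated U373cc3 and 4193, 4999 and 4904 in untreated U373neo and was not called.

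Of 15 DNAJC probes, 3 were higher and 2 lower without UV, against 20.8% and 17.3% of all probes. After UV 4 were higher and 5 lower, against 18.2% and 19.8% of all probes. DNAJC1, in the endoplasmic reticulum membrane, measured 2966, 3138 and 3355 in U373cc3 UV and 1847, 2044 and 2119 in U373neo UV, a log2 change of 0.65 (SE 0.08, adjusted p = 7.56e-05). Without UV its change was 0.25, and that call was lost without U373cc3 replicate 1 (0.19) or U373neo replicate 1 (0.22), 2 (0.27) or 3 (0.27). DNAJC10, a disulfide reductase of the endoplasmic reticulum, measured 1043, 1061 and 814 in U373cc3 UV and 638, 697 and 715 in U373neo UV (0.50, adjusted p = 0.00445). DNAJC6, the auxilin of clathrin uncoating, measured 5872, 6236 and 5699 in U373cc3 UV and 3915, 4054 and 3912 in U373neo UV (0.58, adjusted p = 0.000168). Neither was called without UV.

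BAG1, an exchange factor of HSP70, was lower in U373cc3 after UV. It measured 5116, 5732 and 6486 in U373cc3 UV and 8693, 8721 and 10540 in U373neo UV, a log2 change of -0.69 (SE 0.11, adjusted p = 0.000405). Without UV the clones overlapped (log2 change -0.10, adjusted p = 0.494). Of the CCT ring, 3 of 11 probes were higher without UV and 2 of 12 after UV, and none was lower. Among all probes 20.8% were higher and 17.3% lower without UV, and 18.2% higher and 19.8% lower after UV. CCT7 probe 1 was called under both treatments (0.39 and 0.31). The calls of CCT3 and CCT7 probe 2 without UV and of CCT4 after UV were each lost without at least 1 of the replicates compared. TCP1, a subunit of the ring, measured 5041, 3626 and 4200 in untreated U373cc3 and 4153, 3477 and 3221 in untreated U373neo and was not called. CCT3 averaged 60038 in untreated U373cc3 and 51241 in untreated U373neo, and the highest intensity of any probe on any array was 65490. HSP90B1, the HSP90 of the endoplasmic reticulum, measured 9427, 8400 and 8868 in untreated U373cc3 and 9436, 10665 and 10408 in untreated U373neo. Neither heat shock factor and none of the 3 HSP90 probes was called between the clones under either treatment. Besides HSP90B1, the HSP90 probes were those of the pseudogenes HSP90AA2 and HSP90AB2P. Whether these also detect HSP90AA1 or HSP90AB1 was not tested.

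**Figure D3:**
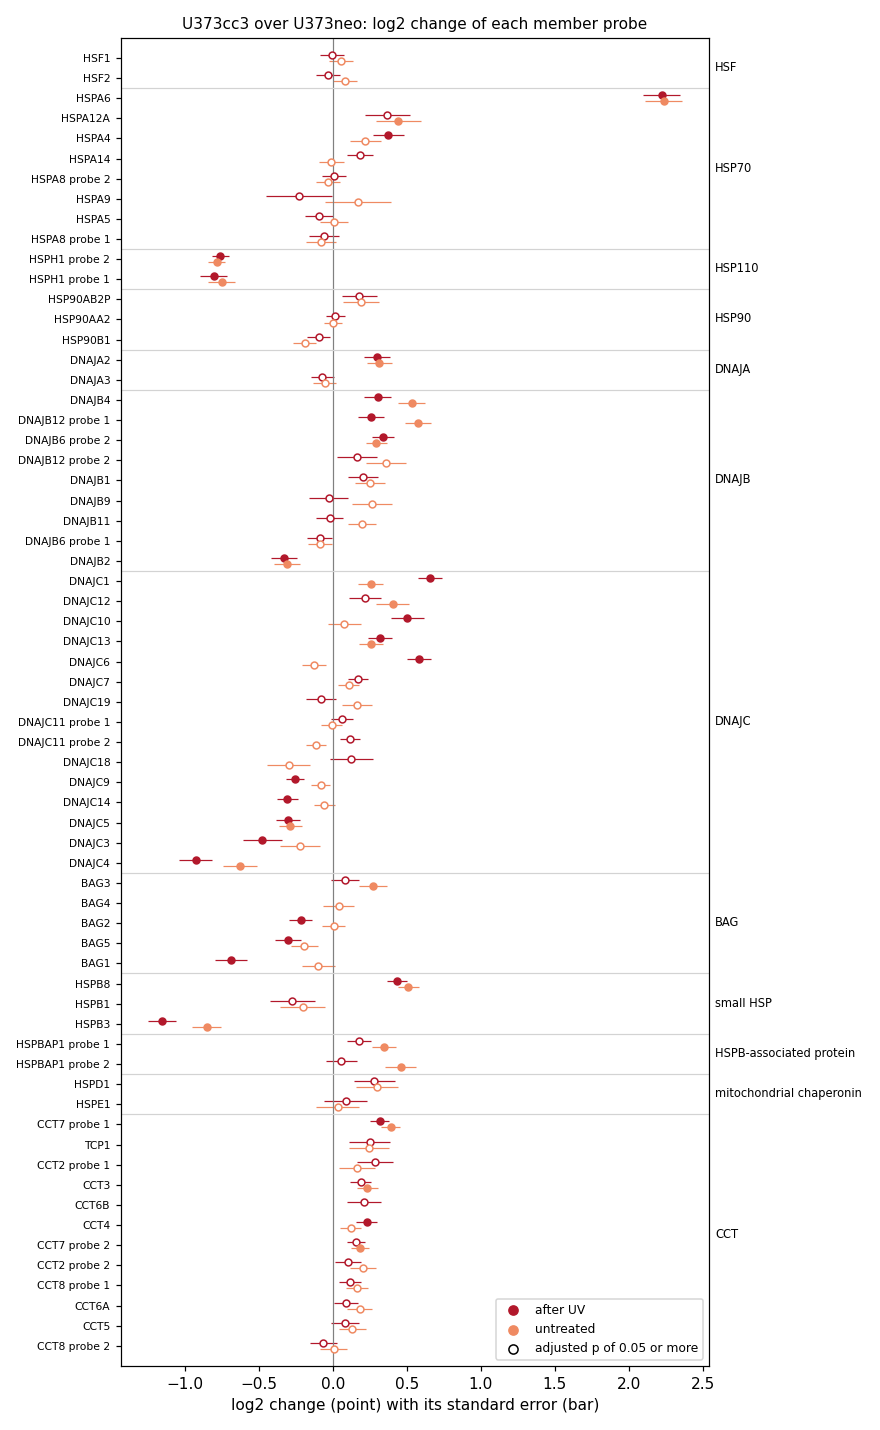
Log2 change of U373cc3 over U373neo (x axis, point with its standard error) for each member probe (y axis, grouped by family), after UV in dark red and untreated in orange, open where the adjusted p was 0.05 or more. HSPA6 lies at 2.24 untreated and 2.22 after UV, and HSPB3, DNAJC4 and both HSPH1 probes lie lowest.

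UV was next compared with no treatment in each clone, on the jointly normalized arrays. In U373cc3, 7 member probes were higher and 20 lower after UV out of 63 (42.9%), against 57.7% of 11602 probes, of which 30.8% were higher and 26.9% lower. In U373neo, 11 were higher and 20 lower out of 63 (49.2%), against 59.5% of all probes, 32.8% higher and 26.7% lower. With a change of at least 1.5-fold, 8 members were called in U373cc3 (12.7%, against 23.1% of all probes) and 9 in U373neo (14.3%, against 24.8%). In both clones 5 members (7.94%) rose and 15 (23.8%) fell, against 22.4% and 21.2% of all probes. None of the members was called in opposite directions, against 0.517% of all probes. The split depended on the scaling. With each array centred on its median instead, 25 members were higher and 10 lower in U373cc3 and 27 higher and 12 lower in U373neo, and the median of all probes was 0.20 and 0.19 in place of 0.06 and 0.07. The member median was -0.10 in U373cc3 and -0.02 in U373neo under the joint normalization, and 0.14 and 0.20 under centring, close to the median of all probes in U373neo. Across both clones 23 member changes that were called under at least 1 of these scalings turned their sign under centring, among them those of CCT3, CCT4, CCT5, CCT8, HSPH1 probe 1 and HSPA8 probe 1. The call was kept whichever replicate was left out for 21 of 27 members in U373cc3 and 24 of 31 in U373neo.

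The heat shock factors moved apart. HSF1, the main regulator of the heat shock response, rose to 2977, 3346 and 3343 in U373cc3 UV, against 2428, 2818 and 2475 in untreated U373cc3. In U373neo UV it measured 3361, 3038 and 3323, against 2584, 2450 and 2383 in untreated U373neo. Neither clone's groups overlapped. The log2 change was 0.33 (adjusted p = 0.00495) in U373cc3 and 0.39 (adjusted p = 0.0013) in U373neo. The U373cc3 call was lost on the deposited intensities (0.18). With serial range A alone, where U373cc3 UV had 1 replicate, the U373cc3 change was 0.36. HSF2, a second factor of the family, fell to 1524, 1692 and 1665 in U373cc3 UV, against 2571, 2582 and 2531 in untreated U373cc3. In U373neo UV it measured 1575, 1774 and 1651, against 2145, 2601 and 2541 in untreated U373neo. The log2 change was -0.66 (adjusted p = 5.33e-05) in U373cc3 and -0.54 (adjusted p = 0.000164) in U373neo.

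The genes with a heat shock element in the printed windows did not move as a group. HSPA6 measured 863, 846 and 839 in U373cc3 UV and 612, 773 and 730 in untreated U373cc3, a log2 change of 0.28 that was not called (adjusted p = 0.059). It was called with only the groups compared in the fit (0.28) and without U373cc3 replicate 2 (0.35). In U373neo it was 154, 182 and 196 after UV and 153, 176 and 138 without UV (0.19, adjusted p = 0.19). HSPA8 probe 2 was lower in both clones (-0.31 and -0.36), and probe 1 was not called in either. With serial range A alone, where U373cc3 UV had 1 replicate, probe 2 was at -0.26 in U373cc3. With arrays centred on their medians probe 2 was at 0.03 in U373cc3 and at -0.01 in U373neo, neither called. HSPD1, the mitochondrial chaperonin, measured 7474, 7526 and 5277 in U373cc3 UV and 6914, 8929 and 8473 in untreated U373cc3, and 5300, 5828 and 5564 in U373neo UV and 6047, 6498 and 6917 in untreated U373neo. Its partner HSPE1 measured 9716, 10133 and 9886 in U373cc3 UV and 8050, 10501 and 11283 in untreated U373cc3, and neither gene was called in either clone. The probes of DNAJB6, a suppressor of protein aggregation, disagreed: probe 1 was higher (0.44 in U373cc3 and 0.45 in U373neo) and probe 2 lower (-0.38 and -0.39). Probe 1 of DNAJB6 gave 1457, 1381 and 1562 in U373cc3 UV and 1211, 961 and 1073 in untreated U373cc3. HSPA5, with the ER stress element, measured 581, 587 and 527 in U373cc3 UV and 546, 515 and 544 in untreated U373cc3, and 522, 662 and 637 in U373neo UV and 569, 539 and 490 in untreated U373neo. Neither HSPA5 nor HSP90B1 was called in either clone.

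HSPB3 and DNAJC4 had the largest rises that both clones shared. HSPB3 measured 454, 554 and 506 in U373cc3 UV, against 340, 326 and 334 untreated, and 1091, 1148 and 1117 in U373neo UV, against 541, 690 and 559 untreated. DNAJC4 averaged 382 ± 14.8 in U373cc3 UV, against 267 ± 45.3 untreated, and 737 ± 57.9 in U373neo UV, against 401 ± 25 untreated (SD, n = 3 each). No treated group overlapped its untreated one. HSPB3 rose 1.51-fold in U373cc3 and 1.89-fold in U373neo, and DNAJC4 rose 1.44-fold and 1.84-fold. DNAJB2 rose by 0.35 in each clone, with 2398, 2366 and 2148 in U373cc3 UV and 1956, 1690 and 1795 in untreated U373cc3. On the deposited intensities neither DNAJB2 change was called (0.16 in U373cc3, adjusted p = 0.147, and 0.18 in U373neo, adjusted p = 0.106). With serial range A alone, where U373cc3 UV had 1 replicate, the U373cc3 change of DNAJB2 was 0.22. DNAJC18, another J-domain gene, measured 439, 421 and 536 in U373cc3 UV and 325, 315 and 287 in untreated U373cc3. It was called in U373cc3 (0.59, adjusted p = 0.00535) and not in U373neo (0.17), and the difference was not called (adjusted p = 0.244).

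BAG1 was higher after UV in U373neo, with 8593, 8630 and 10331 in U373neo UV and 5782, 5477 and 6414 in untreated U373neo (log2 change 0.64, adjusted p = 0.00031). In U373cc3 it was not called (0.09), and the difference between the clones reached an adjusted p of 0.0546. HSPA9 was called in U373neo only (0.63, adjusted p = 0.0297). Its untreated U373neo values were 513, 1048 and 936, and without the low replicate 1 the log2 change was 0.31 and not called. The call was also lost on the deposited intensities (0.40), with only the groups compared (adjusted p = 0.0694), and without U373neo UV replicate 1 (0.64), 2 (0.59) or 3 (0.64).

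The falls were led by J-domain genes and HSPBAP1. HSPBAP1 probe 2 fell to 205, 175 and 158 in U373cc3 UV, against 384, 397 and 416 in untreated U373cc3, and to 155, 177 and 182 in U373neo UV, against 314, 273 and 289 in untreated U373neo. Its log2 change was -1.16 and -0.77, and that of probe 1 -0.64 and -0.47. Probe 1 measured 716, 648 and 698 in U373cc3 UV and 1218, 993 and 1020 in untreated U373cc3. The groups of neither probe overlapped in either clone. DNAJB12 probe 2 fell by 0.88 on the log2 scale in U373cc3 and by 0.70 in U373neo, while its probe 1 was at 0.14 (not called) and at 0.44 (called), so the probes of this gene disagree. DNAJB12 probe 2 measured 200, 225 and 179 in U373cc3 UV and 335, 394 and 380 in untreated U373cc3. DNAJC1 fell by 0.29 in U373cc3 and by 0.64 in U373neo, and DNAJC10 by 0.60 in U373neo, while its change of -0.19 in U373cc3 was not called. The U373cc3 call of DNAJC1 was lost under centring (-0.17, adjusted p = 0.0918). With serial range A alone, where U373cc3 UV had 1 replicate, its U373cc3 change was -0.27. BAG2 and BAG3, exchange factors of HSP70, fell in both clones (BAG2 -0.60 and -0.39, BAG3 -0.52 and -0.30). BAG3 measured 3479, 3267 and 2772 in U373cc3 UV and 4749, 4073 and 4780 in untreated U373cc3. The U373neo call of BAG3 was lost under centring (-0.19), with serial range A alone (-0.21) and without U373neo UV replicate 3 (-0.27).

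**Figure D4:**
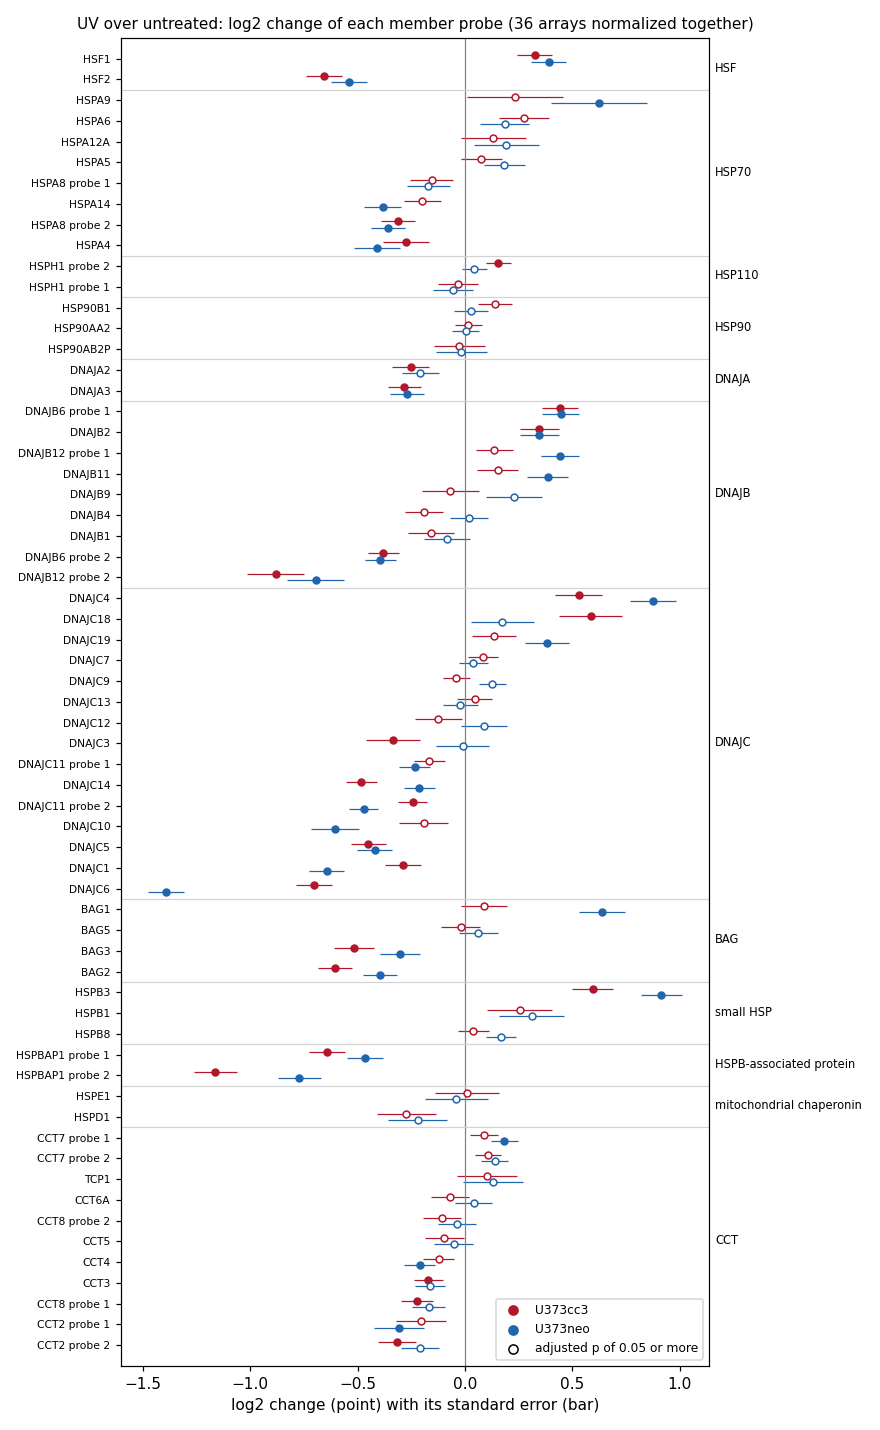
Log2 change of UV over untreated cells (x axis, point with its standard error) for each member probe (y axis, grouped by family) in U373cc3 (red) and U373neo (blue), with the 36 arrays normalized together, open where the adjusted p was 0.05 or more. HSPB3 and DNAJC4 lie to the right of 0 in both clones, and DNAJC6, HSPBAP1 and HSF2 to the left.

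DNAJC6, the auxilin that recruits HSC70 to uncoat clathrin vesicles, was the only member whose UV change was called as different between the clones. It measured 5931, 6277 and 5766 in U373cc3 UV and 9505, 9795 and 9972 in untreated U373cc3. It measured 4047, 4181 and 4048 in U373neo UV and 9323, 11301 and 11778 in untreated U373neo. It fell in both clones without overlap, by 0.70 on the log2 scale in U373cc3 and by 1.39 in U373neo. The difference was 0.69 (SE 0.12, adjusted p = 0.0114) and stayed between 0.62 and 0.79 when any 1 replicate was left out. Of 63 members 1 (1.59%) was called in this comparison, against 6.17% of all probes, 2.18% higher and 3.99% lower, with 2.85% called at a change of at least 1.5-fold. Of the members 10 of 63 (15.9%) had an unadjusted p under 0.05, against 24.6% of all probes.

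Among the members, as among all genes, longer genes had lower UV changes. Across 54 member probes with one probe per gene, Spearman's rho between gene length and log2 change was -0.49 in U373cc3 and -0.53 in U373neo, against -0.40 and -0.54 across 7959 genes. These are correlations across genes on the same arrays, and genes are not independent replicates. Of the 15 members of up to 11105 bases, 3 rose and 1 fell in U373cc3 and 4 rose and 1 fell in U373neo. Of the 1990 genes in this shortest of 4 length classes, 999 rose and 219 fell in U373cc3 and 1191 rose and 121 fell in U373neo. Of the 7 members of 78208 bases or more, 0 rose and 4 (57.1%) fell in each clone, with each gene taken at its probe of highest mean intensity. For DNAJB6 this was probe 2, which fell, while its probe 1 rose. Of the 1990 longest genes, 12.7% rose and 47.6% fell in U373cc3 and 11.1% rose and 57.5% fell in U373neo. HSPB3, with 679 bases, and DNAJC4, with 3850, are among the shortest, and DNAJC6, with 151123, and DNAJC1, with 247183, among the longest.

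**Figure D5:**
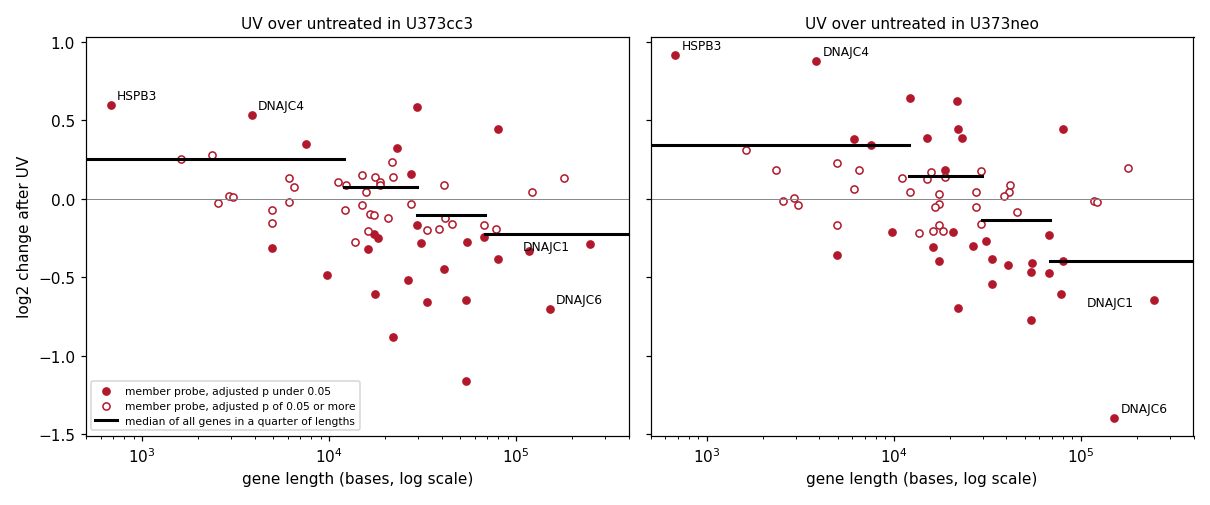
Log2 change after UV (y axis) against gene length in bases (x axis, log scale) for member probes in U373cc3 and U373neo, filled where the adjusted p was under 0.05, with black bars at the median of all genes in each of 4 length classes. The bars step down from 0.25 to -0.22 in U373cc3 and from 0.34 to -0.40 in U373neo.

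Partner genes were taken from 4 lists, and the counts of each list stand beside these shares of all probes. In untreated U373cc3 20.8% of all probes were higher and 17.3% lower than in untreated U373neo. After UV 30.8% rose and 26.9% fell in U373cc3, and 32.8% rose and 26.7% fell in U373neo. The list of cochaperones held 31 symbols, of which STUB1 and CHIP name the same gene. Of these symbols 22 had values, and 7 were higher and 4 lower in untreated U373cc3 out of 21 tested (median log2 change 0.24). STUB1, the ubiquitin ligase CHIP, was higher (0.59, adjusted p = 2.39e-05), and STIP1, which links HSP70 to HSP90, was lower (-0.39, adjusted p = 0.0152). STIP1 lies on chromosome 11, 2 measured genes from DNAJC4. Of the other measured genes of this list on that chromosome, HIKESHI was lower (-0.32), SERPINH1 higher (0.57, adjusted p = 0.00318) and CHORDC1 not called (-0.07). After UV 9 genes of the list rose and 5 fell in each clone. HSBP1, a binding partner of HSF1, rose by 0.76 in U373cc3 and 1.00 in U373neo, and CHORDC1, an HSP90 partner, fell by 0.68 and 0.81 on the log2 scale. Some movers of this list are not cochaperones, such as TSC22D3, a glucocorticoid-induced gene, and ITPRIP, which binds a calcium channel. Such genes are included in the counts of the list. ITPRIP was the 1 gene of the list whose UV change was called as different between the clones (-0.73, adjusted p = 0.00929).

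Of 8 measured prefoldin and CCT partners, URI1 was the 1 called without UV (-0.95, adjusted p = 0.000109), and after UV 3 rose and 1 fell in U373cc3 and 3 rose and 2 fell in U373neo. PFDN5, a prefoldin subunit, rose by 0.50 in U373cc3 and 0.59 in U373neo. Of 20 measured genes of endoplasmic reticulum folding, 4 were higher and 2 lower in untreated U373cc3. HYOU1, an exchange factor of HSPA5, was lower (-0.44, adjusted p = 0.00104) and also lies on chromosome 11, and so was PDIA4, a disulfide isomerase (-0.36). After UV 7 rose and 3 fell in U373cc3 and 9 rose and 3 fell in U373neo, led by CRELD2 (0.63 and 0.70). SDF2 was the 1 gene of this list whose UV change was called as different between the clones (-0.53, adjusted p = 0.0326). It rose by 0.69 in U373neo and was not called in U373cc3 (0.17). EIF2AK3, the stress sensor PERK, fell by 0.95 in U373cc3 and 0.76 in U373neo. Of 11 measured genes of mitochondrial folding, 3 were higher and 1 lower in untreated U373cc3. GRPEL1, the exchange factor of HSPA9, was lower by 0.33 without UV and by 0.87 after UV. It rose by 0.77 after UV in U373neo, while its change of 0.25 in U373cc3 was not called. The difference of these UV changes was not called (-0.52, adjusted p = 0.0711). CLPX, a mitochondrial unfoldase, fell by 0.65 in U373cc3 and 0.61 in U373neo.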

How the data were processed

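Labelled RNA of 12 biological replicates, 3 for each of the 4 groups, was read on Phalanx Human OneArray chips, with 3 arrays for each replicate. The deposited values are linear intensities per probe, between 10.9 and 65490. By the methods, the authors used averaged probe intensities and quantile normalization in GeneSpring. The sources used here give neither the sets of arrays treated together nor the reason for blank probes. The number of arrays limits the precision.

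Each replicate was the mean log2 intensity of its technical arrays. One limma model (limma 3.58.1, statmod 1.5.0, R 4.3.3) covered the 4 groups, in which a probe was called where its Benjamini-Hochberg p, taken across every probe tested, was under 0.05. UV effects used a joint quantile normalization over 11602 probes with values in both treatments. Summaries and plots used Python 3.11.15, pandas 2.3.3 and matplotlib 3.10.9. RefSeq gave names, lengths and promoters, and 9615 of 9659 probes with 1 symbol were matched.

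The members and lists were chosen with earlier results of these data known. The naming rule took the 5 largest rises and the 5 largest falls past the threshold in each comparison together with a list of well-known members, and allowed others by their change. Same-numbered replicates did not deviate together (correlations of -0.35 to 0.37), so numbers were not used as pairs. Alternatives were other scalings, a filter on dim probes, trend and robust options, only the groups compared, the replicate block, single arrays, serial range, the methods' own test and leaving out each replicate.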

Additional observations from a re-analysis of the deposited data

Results flagged for a closer look

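The UV change of DNAJC6 differed between the clones by a test of the difference itself, at 0.69 on the log2 scale for U373cc3 minus U373neo (SE 0.12, adjusted p = 0.0114). The gene fell in both clones, by 0.70 in U373cc3 and by 1.39 in U373neo. Under the 17 alternatives fitted on replicate means the difference was between 0.62 and 0.79, with adjusted p between 0.00282 and 0.0331. All 9 U373neo UV arrays lay in serial range A, and with arrays of that range alone the difference was 0.77, where U373cc3 UV had the 3 technical arrays of 1 replicate, so its p measures no spread between replicates of that group and is not given. DNAJC6 spans 151123 bases, and its part in the relation of UV change to gene length was not tested.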

How the results depend on the processing

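Centring the arrays on their medians gave 27 higher and 12 lower members for UV in U373neo and 25 higher and 10 lower in U373cc3. Among changes called under at least 1 scaling it turned the sign in U373neo of CCT5 (0.37), CCT3 (0.25), HSPH1 probe 1 (0.28), DNAJC11 probe 1 (0.01), CCT4 (0.20), CCT2 probe 1 (0.0134), CCT8 probe 1 (0.22), CCT8 probe 2 (0.40) and HSPA8 probe 1 (0.26). In U373cc3 it turned CCT5 (0.31), CCT3 (0.20), BAG5 (0.26), HSPH1 probe 1 (0.22), CCT6A (0.23), HSPA4 (0.12), CCT4 (0.30), CCT8 probe 1 (0.17), DNAJC9 (0.29), CCT8 probe 2 (0.33), DNAJC11 probe 2 (0.0755), HSPA8 probe 1 (0.28), HSPA8 probe 2 (0.0285) and CCT2 probe 2 (0.029). The cause was not tested.

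Without UV the methods' test after Benjamini-Hochberg gave 9 higher and 3 lower members, serial range as a term 11 lower, and range A alone 10 lower. After UV single arrays gave 22 higher and the methods' test without adjustment 21. For UV in U373cc3 the methods' test after Benjamini-Hochberg gave 13 lower. For the difference of UV changes, single arrays gave 3 higher and 1 lower and serial range as a term 3 and 3. Centring, the dim filter and the trend and robust options gave 1 lower each.

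Leaving out each replicate gave 9 to 18 higher and 4 to 9 lower without UV, 9 to 12 and 9 to 11 after UV, 6 to 7 and 16 to 21 for UV in U373cc3, 9 to 12 and 17 to 20 for UV in U373neo, and 1 to 1 and 0 to 1 for the difference. With the replicate block the counts were 13 higher and 6 lower without UV, 12 and 11 after UV, 6 and 18 for UV in U373cc3, 11 and 19 for UV in U373neo, and 1 and 0 for the difference. Of the values of single members, 152 of the 2280 with a replicate left out changed sign, none of them called with all replicates. Of the other 3289, 124 changed sign, 41 with range A alone, 36 under centring, 29 on the deposited intensities and 18 with serial range as a term. Of these 9 had been called, all of them changed by centring.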
